A study of Mus musculus with 9 samples.

Results

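A set of 8 genes of antibody gene recombination, deamination and repair, or of related deaminases, was followed in splenic B cells of leukemic and healthy mice: *Rag1*, *Rag2* and *Dntt*, which take part in V(D)J recombination, the deaminases *Apobec1* and *Apobec3*, known for other targets, and *Ung*, *Msh6* and *Polh*, which process deaminated bases. They were chosen by name, and all 8 were found among the 22174 genes of the table that the authors made on a reference holding the human transgenes. Enough reads for a test between groups were present for 5 of them, among 11163 genes tested. *Rag1*, *Rag2* and *Dntt* had too few reads and were described by their reads alone.

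The B cells came from 9 mice of strain C57/BL6NTac, 1 library per mouse. Eµ-MTCP1 mice (Z2551, Z2606 and Z2641, all of founder line Z36) carried human *MTCP1*, and Eµ-TCL1 mice (B4376, B4437 and C1594) carried human *TCL1*. In both models an immunoglobulin heavy chain promoter and the Eµ enhancer drive the transgene, so it is directed to B cells. The 3 wildtype mice (Z2754, Z2755 and Z2785) were littermates without the *MTCP1* transgene. Mice were matched by age, which the labels do not give, and the transgenic mice were drawn at random from those with a high disease burden. Cells were taken by a pan B cell isolation kit, and each library is 1 biological replicate. All Eµ-MTCP1 libraries come from 1 founder line, and a fall in the share of a cell type cannot be told apart from less RNA per cell in such bulk samples.

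In developing B cells the RAG1 and RAG2 proteins cut DNA beside the V, D and J segments, the breaks are sealed by end joining, and terminal deoxynucleotidyl transferase, the product of *Dntt*, adds nucleotides at the joints. In activated mature B cells cytosine is turned into uracil in the rearranged genes. The uracil can be removed by the glycosylase UNG or recognized by mismatch repair, in which MSH6 takes part, and DNA polymerase η, the product of *Polh*, copies past such sites with frequent errors. APOBEC3 deaminates retroviral DNA, and APOBEC1 edits cytosine in RNA. Chronic lymphocytic leukemia, for which both transgenic lines serve as models, is divided in patients by whether its antibody genes carry such mutations.

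Between 6447542 and 8033303 reads per library fell on genes (median 7456837). Levels are given as CPM, reads scaled to 1000000 per library after TMM normalization. On that scale 3 reads, taken as the floor of a library, equal 0.326 to 0.495 CPM. The transgenes were checked on the log2 scale of the authors' normalized values. Human *MTCP1* lay between 11.1 and 12.3 in Eµ-MTCP1 mice and between 5.85 and 6.19 in the other mice, and human *TCL1A* lay between 14.9 and 15.6 in Eµ-TCL1 mice and between 6.04 and 6.96 in the others. The 7 B cell markers, among them *Cd79a*, summed to between 7496 and 11162 CPM in each library, against 4.88 to 62.7 CPM for 10 T cell markers and 381 to 1869 CPM for 12 myeloid markers. Wildtype mouse Z2755 was sequenced on another lane than the other 8 libraries.

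Stretches of sequence from *Apobec3* and *Ung* are needed to follow the forms of these genes that the libraries hold. They were read from the GENCODE M21 transcripts of build GRCm38, on the plus strand, 5′ to 3′. The first is the cassette exon of *Apobec3*, chr15:79899020-79899118, which is known to be included or skipped in mouse transcripts. It has 99 bases, a multiple of the codon length, and stands here in capitals between 20 bases of the exons on either side. Below it is the junction of the leading transcript Apobec3-205, which skips the exon, with capitals from the next exon onwards.
Apobec3 with the cassette exon: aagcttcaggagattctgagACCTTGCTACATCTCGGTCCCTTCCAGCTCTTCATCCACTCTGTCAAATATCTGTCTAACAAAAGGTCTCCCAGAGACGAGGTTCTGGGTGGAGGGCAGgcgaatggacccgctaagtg
Apobec3-205, junction: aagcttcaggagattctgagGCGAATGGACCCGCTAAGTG

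The second is the start of the coding sequence of *Ung*, which has a nuclear and a mitochondrial form with separate first exons. Ung-201, the nuclear form, has 123 coding bases of its own (chr5:114130503-114130625), and Ung-202, the mitochondrial form, has 90 (chr5:114131229-114131318). Both then share 795 coding bases. Capitals mark the bases particular to each form, and the first 30 shared bases follow.
Ung-201: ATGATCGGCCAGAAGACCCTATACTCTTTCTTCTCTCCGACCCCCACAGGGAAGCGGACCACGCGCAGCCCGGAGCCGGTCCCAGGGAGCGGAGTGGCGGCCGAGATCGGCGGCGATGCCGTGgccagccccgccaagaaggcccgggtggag
Ung-202: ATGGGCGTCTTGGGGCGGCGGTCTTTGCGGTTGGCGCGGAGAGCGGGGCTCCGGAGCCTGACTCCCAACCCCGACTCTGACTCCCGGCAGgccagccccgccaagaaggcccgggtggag

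The recombinase genes were at the floor in leukemic and in healthy B cells. *Rag1* and *Rag2* (both on chromosome 2, chr2:101638282-101649501 and chr2:101624718-101632529) had 0 reads in all 9 libraries on the transgene reference, which mostly holds coding sequence. A count of 0 allows up to 3 reads, or 0.326 to 0.495 CPM. This limit covers counting error only because the reads carry no molecular identifiers. The intervals of shares below have the same limit and also leave out error in assigning reads to transcripts. The authors' normalized values of both genes are 5.85 in every library, which is the value their scale gives to 0 reads.

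The standard mouse reference, which also holds untranslated regions and took 11410231 to 14034949 reads per library, gave a few more. *Rag1* had 2 reads in Eµ-TCL1 mouse B4376 and 1 read each in wildtype mice Z2754 and Z2785. *Rag2* had 4 reads, all in wildtype mouse Z2755, and the authors' whole counts per gene gave 5 reads in the same mouse and 0 in the others. In no model library did either gene pass the floor on any of these tables.

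*Dntt* (chr19:41029275-41059525) was found in few mice. It had 14 reads in wildtype mouse Z2755, 6 reads each in Eµ-MTCP1 mice Z2606 and Z2641, 1 read in Eµ-TCL1 mouse B4376 and 0 reads in the other 5 mice. The 3 libraries above the floor stood at 1.52, 0.852 and 0.991 CPM. Wildtype mice thus lay both at 0 and at the highest value, and the groups overlapped. The authors' whole counts gave 19, 7 and 10 reads in these 3 mice, 1 read in B4376 and 0 in the other 5.

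*Dntt* did not pass the filter on low counts. Where the filter was dropped, its log2 fold change against wildtype was 0.23 ± 1.70 (SE) in Eµ-MTCP1 and -3.11 ± 2.01 in Eµ-TCL1 mice, with edgeR adjusted p-values of 0.978 and 0.427. The wildtype level rests on Z2755, the library on the other lane, without which *Dntt* had 0 reads in wildtype mice.

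The 12 markers of B cell progenitors summed to 98.2 to 134 CPM in wildtype mice, 40.3 to 44.7 CPM in Eµ-MTCP1 mice and 31.1 to 127 CPM in Eµ-TCL1 mice, where B4437 stood apart from the other 2 mice at 31.1 and 31.8 CPM. *Vpreb2* was at the floor in each group. Of 8 progenitor markers tested, 0 were higher and 3 were lower in both models than in wildtype mice, where 13.1% of all genes tested were called, and each of the 3 lost its call without 1 mouse. For *Sox4* and the receptor gene *Flt3* this was wildtype mouse Z2755, and for *Vpreb3*, a gene of the surrogate light chain family, it was Z2551, Z2754 or Z2785. The transcription factor gene *Sox4* had 0 to 7 reads in the models and 20 to 83 in wildtype mice, the latter in Z2755. *Vpreb3* alone stood at 46.5 to 83.2 CPM in wildtype mice, and in B4437 it stood at 40.6 and *Myb* at 60.3 CPM. In both models against wildtype *Lef1*, *Vpreb1* and *Myb* had positive log2 fold changes of 1.21, 0.69 and 0.58 without passing. *Kit* and *Cd93* were at -1.33 and -0.36, also without passing. *Vpreb1*, *Igll1* and *Il7r* had 0 to 14 reads per library. The part of progenitor cells in the *Dntt* reads was not tested.

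**Figure D1:**
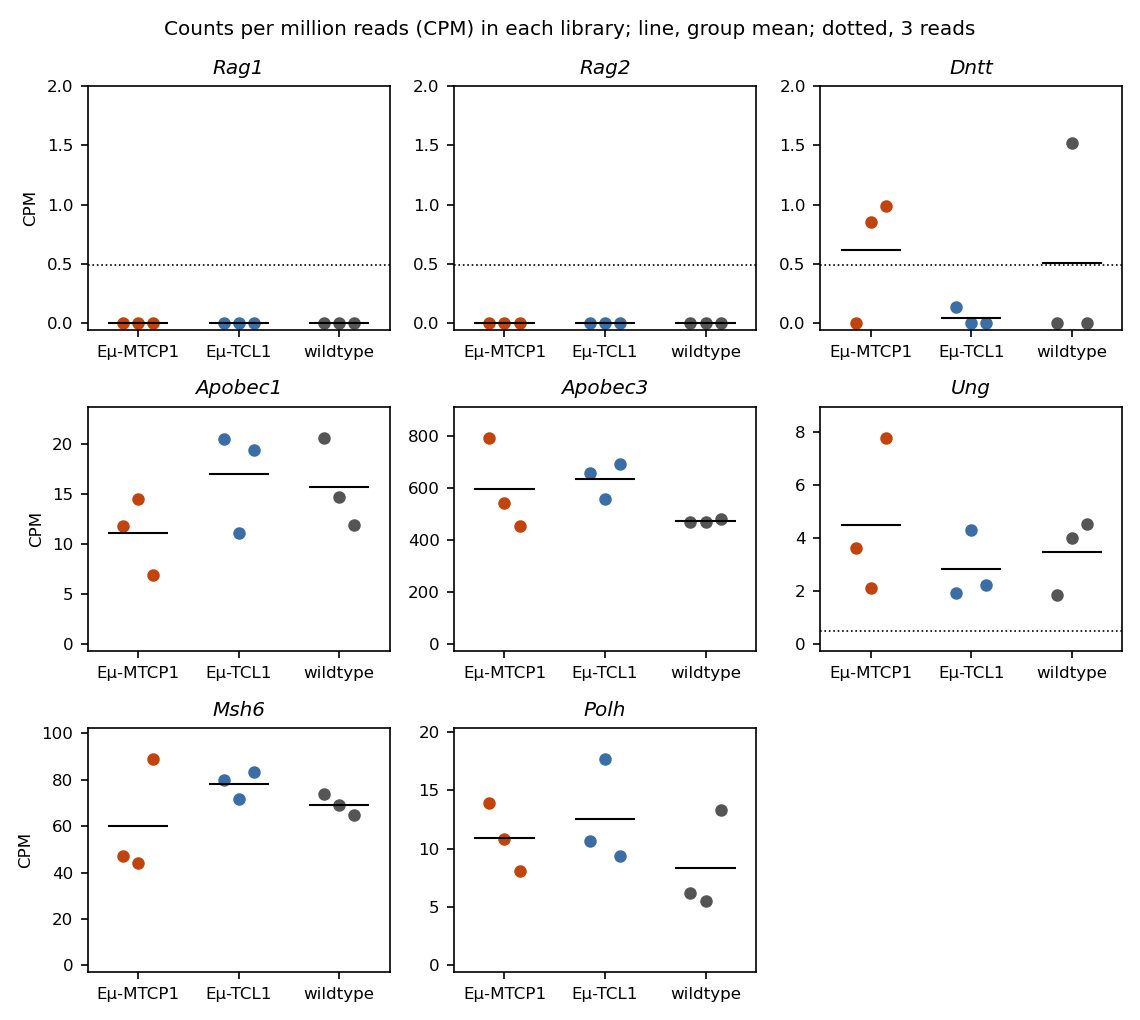
CPM of the 8 genes in every library, with a horizontal line at each group mean and a dotted line at the highest CPM that 3 reads give, 0.495 (in panels of genes with low counts). Each point is a mouse; Rag1 and Rag2 lie at 0 throughout, and Dntt rises above the dotted line in 3 mice.

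The deaminases and the repair genes were expressed, at levels that differ widely between the genes. Levels were compared per length, as CPM per kilobase of coding sequence of the transcript with the most reads. *Apobec3* had the highest, at 370 to 647 over the 9 libraries with a median of 443. *Apobec1* followed at 10.1 to 29.8 (median 21) and *Msh6* at 10.9 to 21.8 (median 17.6), and these neighbours overlapped. *Polh* stood at 2.66 to 8.48 (median 5.11) and *Ung* at 2.09 to 8.74 (median 4.07), again with overlap. *Dntt* reached at most 0.991 on this scale, and *Rag1* and *Rag2* were at 0.

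None of the 5 genes tested passed an adjusted p of 0.05 in any comparison. In Eµ-MTCP1 against wildtype mice the count was 0 of 5, while 9.49% of all genes tested passed. In Eµ-TCL1 against wildtype mice it was 0 of 5 against 9.16%, in both models against wildtype 0 of 5 against 13.1%, and in Eµ-TCL1 against Eµ-MTCP1 mice 0 of 5 against 0.0358%. At an unadjusted p under 0.05 the edgeR quasi-likelihood test likewise gave 0 of 5 in each, where 25%, 25.1%, 29.1% and 6.41% of all genes passed, and its lowest p-values were 0.171, 0.0889, 0.0848 and 0.128. The DESeq2 Wald test also called 0 of 5 in each after adjustment, beside 14.8%, 15.2%, 18.9% and 0.639% of the genes to which it gave an adjusted p. The median absolute log2 fold change of the 5 genes was 0.37 in Eµ-MTCP1 and 0.29 in Eµ-TCL1 against wildtype mice and 0.20 in both models, beside 0.44, 0.42 and 0.41 over all genes tested, and between the models it was 0.38 beside 0.26. Missing the threshold does not show that levels were alike, and the intervals given with each gene say how large a difference these 3 libraries per group leave possible. The comparisons with wildtype share the same 3 control mice.

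*Apobec3* (chr15:79891659-79915906) was the only one of the 5 genes with a group that did not overlap with wildtype. It stood at 468, 470 and 480 CPM in wildtype mice, at 557, 657 and 692 CPM in Eµ-TCL1 mice and at 453, 543 and 792 CPM in Eµ-MTCP1 mice. All 3 Eµ-TCL1 mice and 2 of 3 Eµ-MTCP1 mice thus lay above every wildtype mouse, and Z2641 lay just below. In a check added after seeing the data, TMM-scaled values of the standard reference placed Eµ-TCL1 mice at 554 to 702 CPM. Eµ-MTCP1 mice stood at 611 to 818 and wildtype mice at 522 to 538 CPM there. TMM-scaled whole counts per gene gave 630 to 811, 710 to 940 and 604 to 614 CPM in the same order of groups. In both, every model mouse lay above every wildtype mouse. With library size alone on the standard reference Eµ-TCL1 and wildtype mice overlapped. On the transgene reference, absence of overlap with wildtype was seen for 1 of 5 genes in Eµ-TCL1 mice, where 32.6% of all genes tested showed it. There it was seen for 0 of 5 in Eµ-MTCP1 mice and between the models, against 29.9% and 11% of all genes. For both models it was 0 of 5 against 18.6%.

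The wildtype mean of *Apobec3* was 472 ± 6.23 CPM (SD, n = 3), against 635 ± 69.7 in Eµ-TCL1 mice and 596 ± 176 in Eµ-MTCP1 mice. The log2 fold change was 0.43 (95% interval -0.08 to 0.93, edgeR adjusted p = 0.278) in Eµ-TCL1 mice and 0.33 (-0.17 to 0.84, edgeR adjusted p = 0.391) in Eµ-MTCP1 mice. The Eµ-MTCP1 value was 0.08 without Z2551 and 0.11 with library size alone, but 0.44 on the standard reference and 0.47 without Z2641. On the standard reference its edgeR p was 0.0476 before and 0.195 after adjustment. The Eµ-TCL1 value was 0.28 with library size alone and on the standard reference, and 0.49 without B4437. Both models together gave 0.38 (-0.06 to 0.82, edgeR adjusted p = 0.237), a fold between 0.958 and 1.77. The difference between the models was 0.09 (-0.41 to 0.60), and it was -0.16 on the standard reference and -0.14 on whole counts per gene, where Z2641 was no longer the lowest of the models in reads. The spread in both transgenic groups was larger than in wildtype mice, and no test of the spread was made.

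*Apobec3* was spliced mainly without its cassette exon. Of the reads on transcripts whose coding sequence spans the exon, those that hold it took 5.52, 5.32 and 8.43% in Eµ-MTCP1 mice Z2551, Z2606 and Z2641. They took 2.63, 3.16 and 5.11% in B4376, B4437 and C1594 (Eµ-TCL1) and 3.47, 5.32 and 5.52% in wildtype mice Z2754, Z2755 and Z2785. Each Eµ-MTCP1 mouse lay above each Eµ-TCL1 mouse, while wildtype mice overlapped with both. In B4376, the library with the lowest share, 123 of 4665 estimated reads were on the exon-holding transcripts (95% Wilson interval 2.21 to 3.14%). In Z2641, with the highest, 227 of 2694 were (7.44 to 9.54%). These intervals treat estimated reads as counts and leave out error in assigning reads to transcripts. For B4376 the standard reference gave 5.61% (5.08 to 6.20%), outside the first interval.

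The mean share was 6.42 ± 1.74% (SD, n = 3) in Eµ-MTCP1 and 3.64 ± 1.31% in Eµ-TCL1 mice, a difference of -2.79 percentage points (exact permutation test, two-sided, p = 0.1, the smallest that 3 against 3 allows, and 0.3 after Benjamini-Hochberg adjustment over the 3 pairs of groups). On the standard reference transcripts were chosen by all their exons rather than by coding sequence, which added Apobec3-212 and Apobec3-214 to those spanning the exon. It gave 8.93 ± 1.65% and 5.89 ± 0.25%, again without overlap and with the same exact permutation p of 0.1 (0.15 adjusted). For both models against wildtype the difference was 0.26 percentage points (exact permutation p = 0.952 in the 6 against 3 design, whose smallest p is 0.0238), and it was -0.33 on the standard reference. This share was looked at after the reads of single transcripts had been seen.

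**Figure D2:**
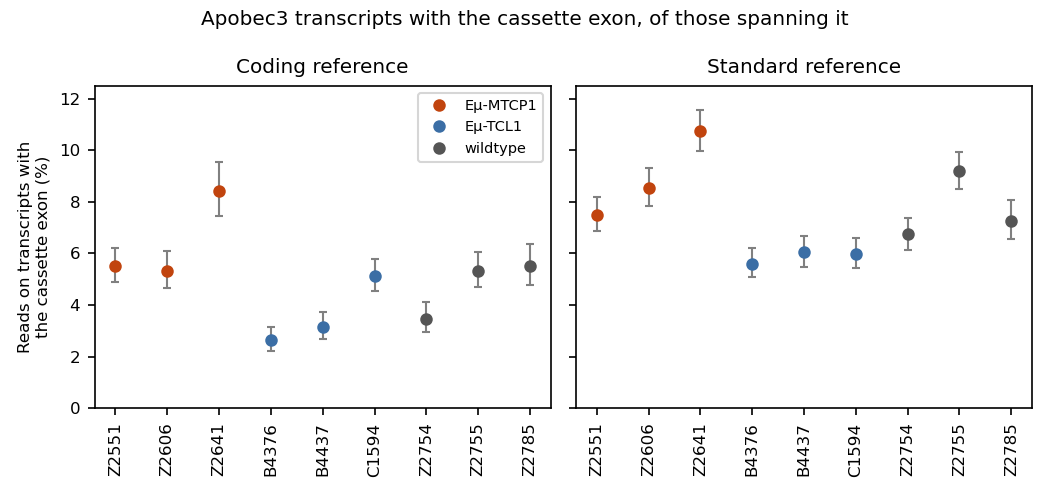
Share of Apobec3 reads, in percent, on transcripts that hold the cassette exon, of those on transcripts spanning it, for every mouse. The left panel is the transgene reference of mostly coding sequence and the right panel the standard reference. Bars are 95% Wilson intervals on estimated reads, which leave out error in assigning reads to transcripts. On both references the Eµ-MTCP1 mice lie above the Eµ-TCL1 mice, and the highest share is that of Z2641, 8.43 and 10.7%.

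The leading transcript of *Apobec3* depended on the reference. Apobec3-205 took 70.0 to 91.3% of the gene's reads in the 9 libraries on the transgene reference, where models and wildtype differed by 0.88 percentage points (exact permutation p = 0.857). On the standard reference it took 18.05 to 19.9% in Eµ-TCL1 mice, 0 to 14.1% in Eµ-MTCP1 mice and 3.08 to 8.78% in wildtype mice, so that Eµ-TCL1 mice lay above all wildtype mice, and models and wildtype differed by 6.86 percentage points (exact permutation p = 0.238). There Apobec3-215 and Apobec3-203, which also lack the cassette exon, held more reads in total, 21345 and 17330. How reads are divided among these transcripts can therefore not be read from the estimates, whereas the low share of the cassette exon was found on both references.

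*Apobec1* (minus strand, chr6:122577792-122602444) had 72, 102 and 42 reads in Eµ-MTCP1 mice Z2551, Z2606 and Z2641, 148, 90 and 138 in B4376, B4437 and C1594 (Eµ-TCL1), and 166, 135 and 79 in wildtype mice Z2754, Z2755 and Z2785. In CPM the groups overlapped, with means of 11.1 ± 3.83 (SD, n = 3), 16.9 ± 5.14 and 15.7 ± 4.41. The log2 fold change was -0.50 (95% interval -1.32 to 0.31, edgeR adjusted p = 0.426) in Eµ-MTCP1 mice and 0.11 (-0.70 to 0.91, edgeR adjusted p = 0.887) in Eµ-TCL1 mice. Between the models it was 0.61 (-0.21 to 1.43, edgeR adjusted p = 0.834). Leaving out a mouse gave -0.79 (without Z2606) to -0.27 (without Z2754) in Eµ-MTCP1 mice and -0.06 (without Z2785) to 0.34 (without Z2754) in Eµ-TCL1 mice, and between the models 0.35 without Z2641.

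The standard reference counted more *Apobec1* reads, 252 to 816 per library. There 3813 reads in total lay on Apobec1-201, which is missing from the transgene reference, and 740 on Apobec1-202. With that depth the log2 fold change was -0.05 for Eµ-MTCP1 and 0.44 for Eµ-TCL1 against wildtype mice, and that of both models against wildtype was 0.20 ± 0.29 (SE), against -0.20 ± 0.31 on the transgene reference, so that its sign was not settled.

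The unit changed the order of the *Apobec1* libraries. Wildtype mouse Z2785 had the lowest wildtype reads, 79, but the highest TPM of the 9 libraries, 75.6, and the highest normalized value of the authors, 8.72 on their log2 scale. Of its TPM, 82.9% came from 2 reads on Apobec1-206, a coding stretch of 129 bases that lies wholly within the coding sequence of Apobec1-202. Salmon gave this stretch an effective length of 2 bases, and TPM divides reads by that length. C1594 and Z2551, with 1 read each on it, took 58.1 and 71.6% of their TPM from that read, and no other library had a read there. The stretch is printed here because so few reads on it set the unit's value (minus strand, between chr6:122581638 and chr6:122591102, exons joined).
Apobec1-206: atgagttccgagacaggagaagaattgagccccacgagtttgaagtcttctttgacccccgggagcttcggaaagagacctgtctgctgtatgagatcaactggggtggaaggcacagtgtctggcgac

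**Figure D3:**
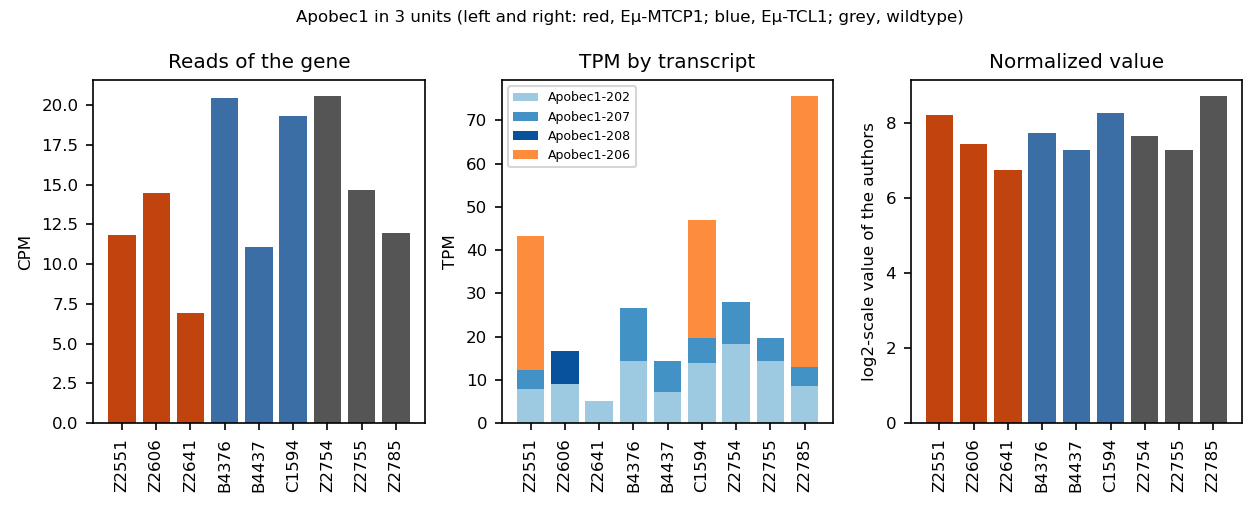
Apobec1 in every library as CPM of the gene (left, bars coloured by group), as TPM stacked by transcript (middle) and as the authors' normalized value on a log2 scale (right); bars start at 0. Apobec1-206 makes up 62.7 of 75.6 TPM in Z2785 from 2 reads, and the same 3 mice, Z2785, C1594 and Z2551, are the highest in the middle and right panels but not in the left one.

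*Ung* (chr5:114130386-114139323) was low, with 14 to 47 reads per library. It stood at 3.61, 2.13 and 7.76 CPM in Eµ-MTCP1 mice Z2551, Z2606 and Z2641, at 1.94, 4.30 and 2.24 CPM in B4376, B4437 and C1594 of the Eµ-TCL1 group, and at 1.86, 4.02 and 4.53 CPM in wildtype mice Z2754, Z2755 and Z2785. Z2641 was the highest and the groups overlapped. The log2 fold change was 0.37 (95% interval -1.0 to 1.75) in Eµ-MTCP1 mice, where it became -0.29 without Z2641, and -0.29 (-1.67 to 1.09) in Eµ-TCL1 mice, with edgeR adjusted p-values of 0.745 and 0.816. The Eµ-TCL1 value ranged from -0.74 without B4437 to -0.06 without Z2785. The authors' whole counts per gene, 61 to 200 reads, were deeper and gave 0.27 ± 0.45 (SE) and -0.36 ± 0.45.

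In total, more *Ung* reads were assigned to the mitochondrial than to the nuclear form. Over the 9 libraries Ung-202 took 177 and Ung-201 34.6 reads on the transgene reference, and 511 and 149 on the standard one, where a transcript with a retained intron took 309. Wildtype mouse Z2754 went the other way on the transgene reference, with 6.75 reads on Ung-201 and 5.22 on Ung-202. In B4376 all 14 reads of the transgene reference were placed on other short transcripts, so no share was tested for *Ung*. The gene was also below the 20 reads per library set for such shares.

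The 3 genes most like *Ung* over the 9 libraries, picked out of 8963 genes with at least 5 CPM, were *Mcm7*, a subunit of the replicative helicase (Pearson r = 0.942), *H2afx*, the histone variant marked at DNA breaks (0.938), and *Brip1*, a DNA helicase gene (0.923). *Mcm7* ranged from 97.0 to 171 CPM in 8 libraries and stood at 347 CPM in Z2641. The 16 proliferation genes summed to 3050 CPM in Z2641, against 940 to 1765 CPM in the other 8 libraries. These values share the library and its scaling, and the part of proliferation in the level of *Ung* was not tested.

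*Msh6* (chr17:87975062-87990892) was the best measured repair gene, with 288 to 639 reads per library. Wildtype mice Z2754, Z2755 and Z2785 stood at 74.0, 69.4 and 64.7 CPM and Eµ-TCL1 mice B4376, B4437 and C1594 at 79.8, 71.7 and 83.3 CPM. Eµ-MTCP1 mice were divided, with Z2551 and Z2606 at 47.3 and 44.3 CPM, below every other library, and Z2641 at 89.0 CPM, above every other. Mitochondrial genes took 8.02% of the reads in Z2641 and 10.8% in wildtype mouse Z2754, against 2.91 to 4.58% in the other 7 libraries, and the part of this in the level of *Msh6* was not tested. The log2 fold change was -0.20 (95% interval -0.77 to 0.36, edgeR adjusted p = 0.661) in Eµ-MTCP1 mice and 0.17 (-0.39 to 0.74, edgeR adjusted p = 0.717) in Eµ-TCL1 mice. Without Z2641 the difference of Eµ-MTCP1 from wildtype mice was -0.63 and that of Eµ-TCL1 from Eµ-MTCP1 mice was 0.77. Their edgeR adjusted p-values were 0.0708 and 0.416. Without Z2551 or without Z2606 the difference of Eµ-MTCP1 from wildtype mice was -0.06. The difference between the models was 0.38 with all mice and 0.20 to 0.77 leaving out a mouse. Both models together differed from wildtype by -0.01 (-0.51 to 0.48). The genes most like *Msh6* were *Nup37*, a nuclear pore gene (Pearson r = 0.938, 9 libraries), *Snupn*, a nuclear import gene (0.916), and *Reps1* (0.893).

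*Polh* (minus strand, chr17:46171355-46202645) had 49 to 144 reads per library. It stood at 13.9, 10.8 and 8.09 CPM in Eµ-MTCP1 mice Z2551, Z2606 and Z2641, at 10.7, 17.7 and 9.38 CPM in B4376, B4437 and C1594 of the Eµ-TCL1 group, and at 6.19, 5.54 and 13.3 CPM in wildtype mice Z2754, Z2755 and Z2785. All 6 transgenic mice lay above Z2754 and Z2755, and Z2785 lay among the transgenic mice. The log2 fold change was 0.40 (95% interval -0.54 to 1.34, edgeR adjusted p = 0.596) in Eµ-MTCP1 mice, 0.60 (-0.34 to 1.54, edgeR adjusted p = 0.420) in Eµ-TCL1 mice and 0.50 (-0.33 to 1.33, edgeR adjusted p = 0.406) in both together. These values depended on single mice. Leaving out a mouse gave 0.14 (without Z2755) to 0.90 (without Z2785) in Eµ-MTCP1 mice and 0.25 (without B4437) to 1.10 (without Z2785) in Eµ-TCL1 mice. In both together it gave 0.25 (without Z2755) to 0.998 (without Z2785, edgeR adjusted p = 0.128). On the standard reference the 3 values were 0.15, 0.42 and 0.29. Its closest genes were *Atp5g3*, a subunit gene of the mitochondrial ATP synthase (Pearson r = 0.925, 9 libraries), *Hint2*, which encodes a mitochondrial protein (0.919), and *Acads*, a dehydrogenase gene of fatty acid oxidation (0.891).

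The genes most like *Apobec3* were *Rmnd1* (Pearson r = 0.958, 9 libraries), *Ada*, which encodes adenosine deaminase (0.9498), and *Ticam1*, an adaptor of Toll-like receptor signalling (0.947). Those most like *Apobec1* were *Lins1* (0.921), *Birc2*, an inhibitor of apoptosis (0.920), and *Kiz* (0.917). The highest *Ada* level, 157 CPM, was in Z2551, which also had the highest *Apobec3*, and wildtype mice stood at 17.2 to 25.1 CPM.

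**Figure D4:**
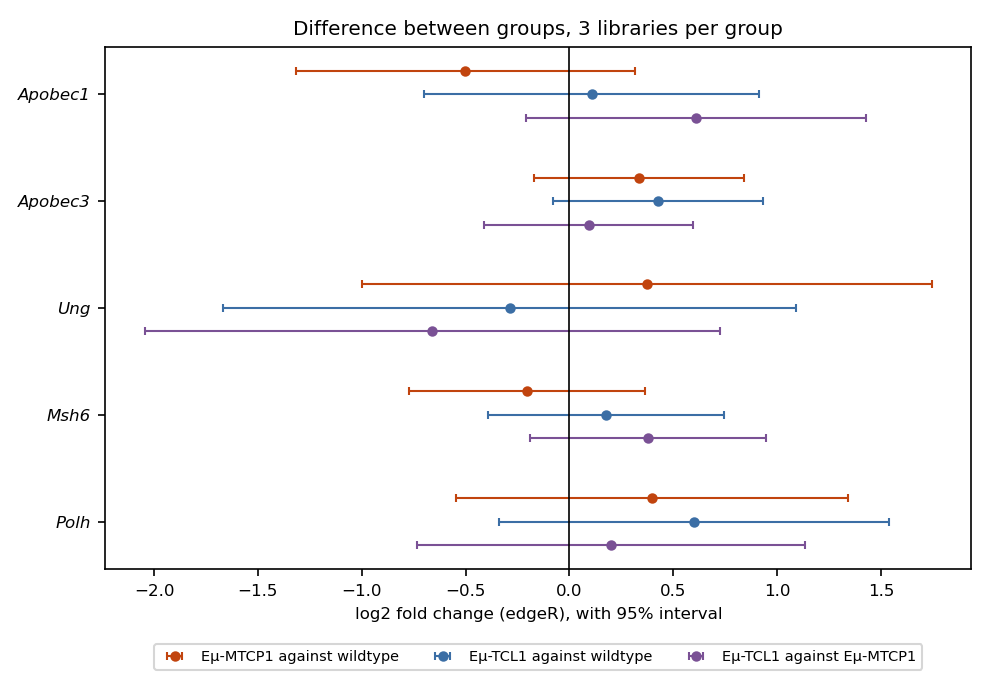
Log2 fold changes of the 5 genes tested, with 95% intervals from the edgeR quasi-likelihood test, for each model against wildtype mice and for the models against each other (Eµ-TCL1 minus Eµ-MTCP1), 3 libraries per group. Each interval includes 0, and those of Ung are wider than those of Apobec3 and Msh6.

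The genes around these 8 were counted in 6 lists, none of which holds a member: deaminases and uracil repair, mismatch repair, translesion polymerases and their control, end joining, cofactors of hypermutation and class switching, and regulators of B cell transcription. In both models against wildtype 13.1% of all genes tested passed the threshold, and the median log2 fold change over all genes was -0.02. In Eµ-MTCP1 against wildtype mice, with 9.49% of all genes called, 1 deaminase gene rose, and 1 end joining gene, 1 cofactor and 2 regulators fell. In Eµ-TCL1 against wildtype mice, with 9.16% called, 1 translesion gene and 1 end joining gene rose, and 1 cofactor and 3 regulators fell. *Gadd45a*, *Bach2* and *Bcl6* were called in both of these comparisons, which share their controls. Between the models edgeR called 0 genes of the 6 lists, with 5 at an unadjusted p under 0.05 beside 6.41% of all genes, while the DESeq2 Wald test called 1, *Bach2*, beside 0.639%.

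In the list of deaminases and uracil repair 0 of 15 genes passed with edgeR in both models against wildtype, and the median was 0.21. At an unadjusted p under 0.05 edgeR gave 6 of 15 beside 29.1% of all genes in both models against wildtype, and the DESeq2 Wald test called 3 after adjustment beside 18.9%, *Apobec2*, *Mbd4* and *Xrcc1*. *Apobec2*, a family member expressed mainly in muscle, was higher in Eµ-MTCP1 than in wildtype mice (log2 fold change 4.11 ± 1.08 SE, edgeR adjusted p = 0.0402) and is named after its values were seen. It had 22, 168 and 213 reads in Z2551, Z2606 and Z2641, 14, 21 and 124 in B4376, B4437 and C1594 (Eµ-TCL1), and 5, 6 and 16 in wildtype mice Z2754, Z2755 and Z2785. Leaving out Z2606, Z2641 or any 1 wildtype mouse raised its adjusted p to between 0.0592 and 0.159 with edgeR.

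Mismatch repair had 0 of 14 genes past the threshold with edgeR and a median of -0.01. At an unadjusted p under 0.05 edgeR gave 5 of 14 beside the same 29.1%, and the DESeq2 Wald test called 2 after adjustment beside 18.9%, the clamp loader genes *Rfc1* and *Rfc5*. In the list of translesion polymerases and their control 1 of 16 genes passed, upwards, with a list median of -0.34. At an unadjusted p under 0.05 edgeR gave 3 of 16. DESeq2 called 2, the other being *Poli*, a translesion polymerase gene, with a log2 fold change of -0.80 ± 0.24 (SE, edgeR adjusted p = 0.0522). The gene that passed was *Ube2a*, a ubiquitin-conjugating enzyme gene of the RAD6 pathway that recruits such polymerases, at 67.8 to 132 CPM in the models and 40.2 to 55.3 CPM in wildtype mice (0.89 ± 0.22 SE, edgeR adjusted p = 0.0273).

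Among 22 genes of end joining and break signalling, 1 rose and 1 fell, and the median was -0.07. DESeq2 called these and *Rad50*, which had a log2 fold change of -0.63 ± 0.21 (SE, edgeR adjusted p = 0.0718). *Xrcc6*, which encodes Ku70, the subunit that binds broken ends, stood at 67.2 to 95.4 CPM in the models and 43.4 to 51.1 CPM in wildtype mice (0.67 ± 0.15 SE, edgeR adjusted p = 0.0168). *Nbn*, a component of the complex that senses breaks, stood at 8.53 to 20.02 CPM in the models and 23.1 to 45.6 CPM in wildtype mice (-1.16 ± 0.29 SE, edgeR adjusted p = 0.0252). Of 18 cofactors of hypermutation and class switching, 0 rose and 1 fell, with a median of -0.27. *Gadd45a*, a stress response gene, stood at 4.56 to 15.7 CPM in the models and 31.6 to 34.3 CPM in wildtype mice (-1.54 ± 0.31 SE, edgeR adjusted p = 0.00954).

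Of 18 regulators of B cell transcription, 0 rose and 5 fell, with a median of -0.30. *Bcl6*, the master regulator of germinal center B cells, stood at 4.90 to 18.5 CPM in the 6 model libraries and 56.1 to 78.1 CPM in wildtype mice (log2 fold change -2.43 ± 0.33 SE, edgeR adjusted p = 0.00102). *Bach2*, a repressor needed for class switching, stood at 14.1 to 44.9 CPM in the models and 83.4 to 89.1 CPM in wildtype mice (-1.66 ± 0.17 SE, edgeR adjusted p = 0.000162). It was lower in each model on its own, by a log2 fold change of -1.14 in Eµ-MTCP1 and -2.19 in Eµ-TCL1 mice. All 3 Eµ-TCL1 mice lay below all 3 Eµ-MTCP1 mice. Between the models 11% of all genes tested did not overlap, and edgeR did not call *Bach2* there. *Irf8*, a factor of early and germinal center B cells, fell by 1.5 ± 0.38 on the log2 scale (edgeR adjusted p = 0.0270). *Foxo1*, an activator of *Rag* transcription, fell by 0.997 ± 0.27 (edgeR adjusted p = 0.0383). *Ebf1*, a factor of early B cells, fell by 0.73 ± 0.15 (edgeR adjusted p = 0.0107).

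Among these list genes *Bcl6*, *Bach2* and *Gadd45a* passed in both models together under all 17 alternatives. *Xrcc6* lost its call when any 1 of the 3 wildtype mice was left out and with library size alone, *Nbn* without Z2551, C1594, Z2754 or Z2755, and *Irf8* without Z2551 or any 1 wildtype mouse. *Foxo1* lost it without Z2551, Z2641, B4376, B4437, Z2755 or Z2785, and *Ube2a* without Z2606, B4437, C1594 or any 1 wildtype mouse and with library size alone. The adjusted p-values of these 5 genes reached 0.0841, 0.155, 0.102, 0.180 and 0.138 in turn under edgeR alternatives. The call of *Ebf1* was not followed under the alternatives.

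**Figure D5:**
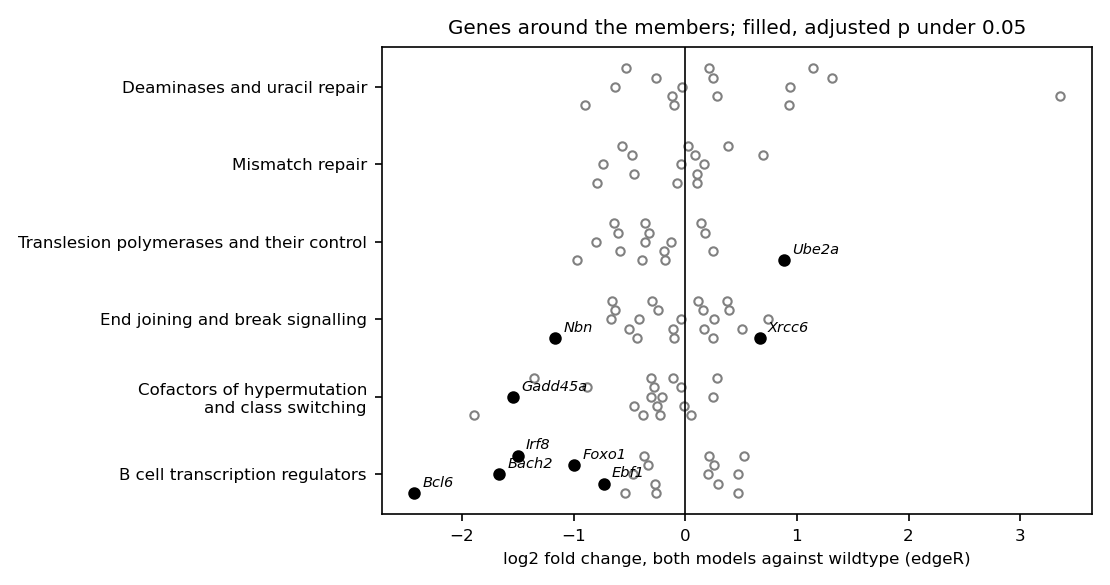
Log2 fold change, both models against wildtype, of every tested gene in the 6 lists around the members; filled points passed an adjusted p of 0.05 with edgeR and are named, open points did not, and the vertical position within a list has no meaning. The 5 regulators that passed all lie below 0, and Ube2a and Xrcc6 lie above 0.

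Lists of cell type and state markers were read against the same 13.1% of all genes. Of 9 germinal center markers tested, 0 rose and 2 fell, *Bcl6* and *Gcsam*, which had 0 to 2 reads in the models and 12 to 25 in wildtype mice (edgeR adjusted p = 0.00771). The whole list of 12 summed to 55.5 to 161 CPM in Eµ-MTCP1, 66.3 to 137 CPM in Eµ-TCL1 and 119 to 171 CPM in wildtype mice. Of 12 myeloid markers 1 rose and 0 fell with edgeR, with a list median of -0.74. The gene that rose was *Cd68*, at 154 to 323 CPM in the models and 36.1 to 68.3 CPM in wildtype mice (edgeR adjusted p = 0.00165), and the list summed to 885 to 1388, 381 to 1834 and 889 to 1869 CPM. The DESeq2 Wald test also called *Cd14* and *C1qb*, which had log2 fold changes of -1.47 ± 0.53 and -2.26 ± 0.67 (SE) with edgeR. Of 16 proliferation genes 1 rose with edgeR and 5 were called by DESeq2, with a list median of 0.59. The gene that rose was *Mki67*, at 112 to 515 CPM in the models and 71.0 to 105 CPM in wildtype mice (edgeR adjusted p = 0.0410), which lost its call with library size alone and when any 1 mouse other than Z2606 or Z2641 was left out. In Eµ-MTCP1 mice *Tyms* passed beside it, named after its values were seen. Of 7 B cell markers and 4 T cell markers tested, 0 passed with edgeR, 3 and 1 had an unadjusted p under 0.05, and DESeq2 called 2 and 0. In the progenitor list *Flt3* and *Vpreb3* fell beside *Sox4*, with log2 fold changes of -2.43 ± 0.51 and -2.35 ± 0.57 (SE, edgeR adjusted p = 0.0112 and 0.0226). The part of these cell states in the levels of the regulators was not tested.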

How the data were processed

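RNA of splenic B cells from 9 mice was sequenced (3 Eµ-MTCP1, 3 Eµ-TCL1 and 3 wildtype), and groups were taken from the deposited labels. The labels name SMARTer and Nextera XT as well as a TruSeq stranded kit, and the submitters' processing notes name CASAVA 1.8.2, HISAT2 2.0.6, featureCounts, Salmon 1.0.0 and DESeq2. Estimated counts per transcript, their effective lengths and TPM were made by the authors with Salmon on a standard mouse reference and on a reference with the human transgenes. In the latter 92.2% of annotated coding transcripts have the length of their coding sequence. Whole counts per gene were deposited by the authors, with a second table filtered on coverage. Normalized values on a log2 scale were made by the authors with DESeq2 and used for the transgenes and as a unit beside the reads; the fold changes, statistics and p-values in those tables were not used.

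Transcripts were joined to genes with GENCODE M21 (GRCm38), while the study names release 23 and the notes name GRCm38.p4; 0.190 to 0.291% of reads stayed unassigned and entered no test. Columns left unmapped numbered 0. Estimated counts of the transgene reference were summed per gene, rounded, filtered by filterByExpr, normalized by TMM and tested two-sided in edgeR 4.0.16 under R 4.3.3 by its quasi-likelihood test. A single fit without covariates held all 9 libraries. P-values were adjusted by Benjamini-Hochberg over 11163 genes, with calls at an adjusted p under 0.05. DESeq2 1.42.0 was an alternative, beside size factors, library size alone, immunoglobulin genes left out, no filter, length offsets, the other tables and each library left out in turn. The fits were tested on simulated data.

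A library with 3 reads or fewer was at the floor. Transcript shares were compared for genes with at least 20 reads in every library, by exact permutation tests; intervals of shares are 95% Wilson intervals. Of each list, at most 4 genes with the largest log2 fold change among those called in both models against wildtype were named, and for each gene tested the 3 genes with the highest Pearson r of log2 CPM (prior count 2); *Ebf1*, *Apobec2* and *Tyms* were named after their values were seen. Values of some further genes that the lists count are not reported here. The members, lists and tests were chosen with earlier results of these data known.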

Additional observations from a re-analysis of the deposited data

How the results depend on the processing

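The count of members past the threshold was 0 in each of the 4 comparisons under all 17 alternatives. Counts over all genes moved more. The DESeq2 Wald test called 1646 genes in Eµ-MTCP1 against wildtype (1059 with edgeR), 1692 in Eµ-TCL1 against wildtype (1023) and 71 between the models (4), where dropping the filter gave 10 and the standard reference 7. Leaving out a mouse gave 525 to 1028, 515 to 1237 and 4 to 7 genes in these comparisons and 762 to 1617 in both models against wildtype (1462). Leaving out Z2754 or Z2755 lowered the counts against wildtype by over 1.5 times, to 525 and 567 in Eµ-MTCP1, 515 and 546 in Eµ-TCL1 and 762 and 801 in both. Leaving out Z2551 gave 599 in Eµ-MTCP1, and leaving out C1594 gave 656 in Eµ-TCL1 and 7 between the models. Library size alone shifted the median log2 fold change of all genes to -0.26, -0.15 and -0.21 against wildtype (Eµ-MTCP1, Eµ-TCL1, both), which the members share.

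No paired analysis was possible because the labels give no replicate numbers that the groups share.

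Fold changes that changed sign, none past the threshold on either side, were as follows. *Apobec1* was -0.0417 with library size alone and -0.27 with length offsets in Eµ-TCL1 mice (-0.0574 to 0.34 leaving out a mouse), and 0.20 on both the standard reference and whole counts in both models (-0.36 to 0.0319). *Apobec3* between the models was -0.16 on the standard reference and -0.14 on whole counts (-0.0768 to 0.35). *Ung* was 0.000197 with length offsets in Eµ-TCL1 mice, and -0.15 with library size alone, -0.0058 on the standard reference and -0.0476 on whole counts in both models (-0.30 to 0.27); leaving out a mouse gave -0.29 to 0.69 in Eµ-MTCP1 mice. *Msh6* in both models ranged from -0.25 to 0.0585 and *Polh* between the models from -0.13 to 0.41. In percentage points, the share of Apobec1-202 in *Apobec1* went from -2.12 to 1.11 and that of Apobec3-205 in *Apobec3* from 0.88 to -2.92 as TPM (-1.14 to 3.10 leaving out a mouse). The cassette share went from 0.26 to -0.33 on the standard reference (-0.42 to 0.74). Causes of these changes were not tested. The cassette share and the alternatives for list genes were chosen after seeing the data. *Rag1*, *Rag2* and *Dntt* did not pass the filter on low counts, and *Ung* had 14 to 47 reads per library.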
